A study of Arabidopsis thaliana with 4 samples.

Results

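AZI1 (AT4G12470), EARLI1 (AT4G12480), AT4G12490, AT4G12500, AT4G12510, AT4G12520, AT4G12545 and AIR1 (AT4G12550) stand in a tandem array of related genes on chromosome 4 of Arabidopsis thaliana. These 8 genes were taken by their identifiers from 32833 genes with RNA counts, and they were proposed with their response to osmotic stress in view. Their RNA differences between stress and control are therefore given as a description. Nuclei came from root tips of Col-0 plants, a wild-type accession, under control conditions or under osmotic stress imposed with sorbitol, with 2 libraries of each. No allele or transgene separated the groups. Each library was a single-nucleus multiome, in which RNA molecules and accessible chromatin are counted in the same nucleus. The labels do not say that the 2 libraries of a group came from separate plantings, so p-values measure the spread between these libraries only.

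Hybrid proline-rich proteins carry a signal peptide, a proline-rich stretch and a domain with 8 cysteines that resembles that of lipid transfer proteins, and many of them reach the cell wall or membranes. AZI1 is known for a part in priming of defence by azelaic acid and in systemic acquired resistance, in which a local infection protects distant leaves. EARLI1 was first described as a gene induced by aluminium and is also known to respond to cold. AIR1 was found among genes induced by auxin in root cultures that form lateral roots. No role is given here for the other members.

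The 8 genes spanned chr4:7401087-7439805, 38.7 kb that held 13 annotated genes in the TAIR10.1 annotation of RefSeq. Each member had 1 exon. AZI1 (7401087 to 7401951), EARLI1 (7406065 to 7406994), AT4G12490 (7409621 to 7410406), AT4G12500 (7413990 to 7414955), AT4G12510 (7417068 to 7417873) and AT4G12520 (7420951 to 7421828) lay on the minus strand. AT4G12545 (7434199 to 7434858) and AIR1 (7439115 to 7439805) lay on the plus strand. The array was made of neighbouring pairs. The coding sequences of AT4G12510 and AT4G12520 were 99.5% identical, those of AT4G12545 and AIR1 93.2%, those of AT4G12490 and AT4G12500 90.3%, and those of AZI1 and EARLI1 84.6%. In AT4G12510 and AT4G12520, 49.2% and 56.1% of all stretches of 90 bases also occurred elsewhere in the genome, and in their last 490 bases these shares were 9.23% and 13.7%. Counts of this pair could be split or lost between the copies and are uncertain. The other members held no such stretch. EARLI1, AT4G12490, AT4G12545 and AIR1 were each overlapped by a gene on the other strand.

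The sequences before the starts are shown because the pairs differed in how alike they were there. Over the 250 bases before the annotated start, AT4G12545 and AIR1 were 88.8% identical, AZI1 and EARLI1 70.8%, and AT4G12510 and AT4G12520 62.8%. The windows of the last pair are out of step. The bases around a TATAAA that begins 113 bases before the start of AT4G12510 recur almost unchanged in AT4G12520. There this TATAAA begins 23 bases before the annotated start. The value of 62.8% is therefore not read as a measure of how alike this pair is. The 200 bases before the starts of AZI1 (chr4:7401952-7402151, minus strand), EARLI1 (chr4:7406995-7407194, minus strand), AT4G12545 (chr4:7433999-7434198, plus strand) and AIR1 (chr4:7438915-7439114, plus strand) follow, read from the RefSeq TAIR10.1 genome. Capitals mark, on either strand, TTGAC (the W-box core), CCGAC (the core of the dehydration-responsive element), ACGTG (the core of the abscisic acid response element) and TATAAA (the TATA box).
AZI1: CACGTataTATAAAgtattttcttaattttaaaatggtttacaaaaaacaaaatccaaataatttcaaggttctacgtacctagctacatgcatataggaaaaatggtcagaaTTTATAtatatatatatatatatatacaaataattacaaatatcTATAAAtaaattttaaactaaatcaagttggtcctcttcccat
EARLI1: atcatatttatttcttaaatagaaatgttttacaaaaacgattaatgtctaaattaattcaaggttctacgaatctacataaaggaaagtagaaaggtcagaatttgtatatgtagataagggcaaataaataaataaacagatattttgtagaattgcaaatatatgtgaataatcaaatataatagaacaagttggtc
AT4G12545: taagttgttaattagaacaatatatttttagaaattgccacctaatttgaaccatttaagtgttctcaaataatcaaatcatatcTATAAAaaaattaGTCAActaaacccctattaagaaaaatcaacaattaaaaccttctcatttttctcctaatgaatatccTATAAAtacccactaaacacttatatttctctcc
AIR1: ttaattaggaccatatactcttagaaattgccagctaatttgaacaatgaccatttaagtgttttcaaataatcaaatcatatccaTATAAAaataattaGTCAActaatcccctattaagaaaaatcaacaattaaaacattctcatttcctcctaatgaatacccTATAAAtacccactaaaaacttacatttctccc

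Motifs were counted on both strands from 250 bases before to 50 bases after each start and set beside 27443 promoters of the same length. TTGAC, the core of the W-box bound by WRKY factors, stood in 6 of the 8 members and in 50.5% of all promoters. It was not found in AT4G12510 or AT4G12520. In AT4G12545 and AIR1 it began 102 and 100 bases before the start, and in AZI1 and EARLI1 its nearest copies began 224 and 237 bases before it, outside the 200 bases printed. TATAAA, the TATA box, stood in 7 of 8 members, all but EARLI1, and in 52.1% of promoters. ACGTG, the core of elements bound by abscisic acid response factors, stood in AZI1 and AT4G12500 and in 26.7% of promoters. TGACG stood in AT4G12500 alone and in 23.1%. CCGAC, the core of the dehydration-responsive element, was not found in any member and stood in 15.0% of promoters. The same held for the G-box CACGTG (7.68%) and for the auxin response motifs TGTCTC (14.2%) and TGTCGG (5.12%). The motif TGACG can overlap that of the W-box or the abscisic acid response element where they adjoin, and the latter lies within the G-box. These matches are of letters in a window and describe nothing further.

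Nuclei with RNA counts over 1000 and under 25000 were kept, 23532 of 24474 deposited barcodes. Control libraries 1 and 2 held 3213 and 6133 nuclei, and stress libraries 1 and 2 held 7687 and 6499. RNA counts per library ran from 17567594 to 37717096 and peak counts from 11711639 to 35787184. Control 1 stood apart, since 53.9% of its nuclei had at most 1000 peak counts, against 14.2% to 22.3% in the other libraries. Its nuclei were also of another makeup, with 32.4% in the class named below as DNA replication-like, against 1.60% to 12.6%. With other random seeds of the clustering this share was 32.3% to 34.1% in control 1 and 8.36% to 12.8% in the other libraries. Control 2 differed in makeup as well, with 20.5% of its nuclei in the class named below as pericycle-like, against 4.92% to 8.30%. Values per library are given throughout, in the order control 1, control 2, stress 1 and stress 2. Pairs of libraries shared 26 to 81 barcodes, 0.809% to 1.43% of the smaller library.

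AZI1 and EARLI1 were nearly silent in control root tips and reached about 40 CPM under stress, where CPM are RNA counts scaled to the same total in every library. AZI1 had 17, 97, 1648 and 1323 counts in the 4 libraries, or 0.968, 3.24, 43.7 and 41.8 CPM. Both stress libraries lay far above both controls, and the controls differed from each other by more than the stress libraries did. The ratio of the mean CPM was 20.3. The log2 difference fitted by edgeR was 4.07 ± 0.51 (SE, 2 against 2 libraries), which became 3.53 without control 1 and 5.23 without control 2. EARLI1 had 8, 12, 1432 and 1121 counts, or 0.455, 0.400, 38.0 and 35.4 CPM. Its groups were further apart and its controls closer to each other, with a ratio of 85.7 and a fitted log2 difference of 6.23 ± 0.16. Among 20587 genes ordered from the highest fitted log2 difference, EARLI1 stood at place 13 and AZI1 at place 41.

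The pair next to them, AT4G12490 and AT4G12500, was at or near 0. AT4G12490 had 1, 0, 1 and 0 counts, too few for a fit. AT4G12500 had no count in any library, which allows a level of up to 0.171, 0.100, 0.0795 and 0.0948 CPM at 3 counts per library. Such limits and all intervals below cover counting error only. These genes share 76.9% to 83.3% of their coding bases with AZI1 and EARLI1, so the array held expressed and unexpressed relatives side by side.

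AT4G12510 and AT4G12520 were abundant in every library and showed no gain under stress. AT4G12510 had 845, 467, 453 and 416 CPM, and both stress libraries lay below both controls, though stress 1 and control 2 were close. Its fitted log2 difference was -0.80 ± 0.32, and it was -0.29 without control 1, -1.19 without control 2 and -0.08 when nuclei also had to hold over 1000 and under 100000 peak counts. AT4G12520 had 997, 519, 677 and 584 CPM, and its groups overlapped because control 1 lay above both stress libraries and control 2 below both. Its fitted value of -0.47 ± 0.35 turned to 0.09 without control 1 and to 0.31 under the limits on peak counts, and was -0.89 without control 2. No direction is given for AT4G12520.

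AT4G12545 and AIR1 were abundant in control root tips and higher still under stress. AT4G12545 had 240, 255, 485 and 489 CPM, a ratio of 1.97 and a fitted log2 difference of 0.78 ± 0.10. AIR1 had 245, 266, 688 and 687 CPM, a ratio of 2.69 and a fitted log2 difference of 1.23 ± 0.11. In both genes the libraries of a group lay close together and the groups were well separated. The members of the pair were at nearly the same level in controls and not under stress. AIR1 counts divided by AT4G12545 counts gave 1.02, 1.04, 1.42 and 1.40. The corresponding ratio of AT4G12520 to AT4G12510 was 1.18, 1.11, 1.49 and 1.40, for counts that may be split between copies.

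**Figure D1:**
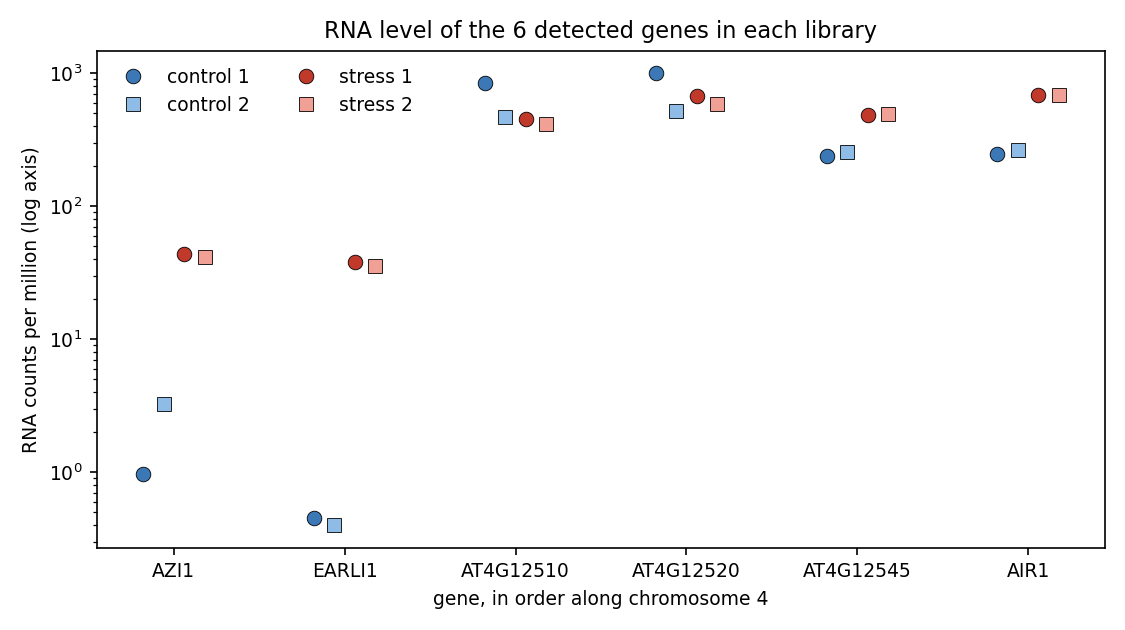
RNA level of the 6 detected members in each library, in CPM on a log axis, with 1 point per library (circles, replicate 1; squares, replicate 2; blue, control; red, stress). AZI1 and EARLI1 lie below 4 in both controls and above 35 in both stress libraries, AT4G12510 and AT4G12520 lie above 400 in all, and AT4G12545 and AIR1 lie higher in stress with no overlap.

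By edgeR's quasi-likelihood test with Benjamini-Hochberg adjustment over 20587 genes, 4 of the 8 members had an adjusted p under 0.05 with a higher level under stress. These were AZI1, EARLI1, AT4G12545 and AIR1. None was lower and 2 were not tested for want of counts. Of all genes tested, 6.8% were called higher and 3.07% lower, and both stress libraries lay above both controls in 50.4% and below both in 18.7%. The members were chosen on this contrast, so nothing is read from their count. The call on each of the 4 genes was lost when either stress library was left out, where no gene of any kind was called higher at an adjusted p under 0.05 and 1687 and 1569 had an unadjusted p under 0.05. That on AT4G12545 was also lost under the limits on peak counts and with every nucleus thinned to 1000 RNA counts.

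The array as a whole changed in makeup more than in amount. Its 8 genes together had 2329, 1511, 2385 and 2252 CPM, with control 1 between the stress libraries. AT4G12510 and AT4G12520 gave 79.1% and 65.2% of these counts in the controls and 47.4% and 44.4% under stress. AT4G12545 and AIR1 gave 20.8%, 34.5%, 49.2% and 52.2%. AZI1 and EARLI1 gave 0.0611%, 0.241%, 3.42% and 3.43%. Counts are of RNA molecules tagged at their 3′ ends and were not divided by gene length.

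For AZI1, EARLI1 and AIR1 the share of nuclei with RNA lay higher in both stress libraries, as their CPM did. AZI1 was seen in 0.498%, 1.43%, 15.2% and 14.8% of nuclei and EARLI1 in 0.187%, 0.196%, 11.3% and 11.2%. With every nucleus thinned to 1000 RNA counts, AZI1 was seen in 0.156%, 0.310%, 4.59% and 3.92%. A nucleus with AZI1 RNA in the stress libraries held 1.41 and 1.38 counts of it on average, so most of these nuclei rested on a single molecule. AIR1 was seen in 40.1%, 36.5%, 76.0% and 76.0%, and after thinning in 16.6%, 16.9%, 40.2% and 41.1%. AT4G12510, whose CPM lay lower in both stress libraries without passing the test (edgeR adjusted p = 0.162), was seen in 50.9%, 46.2%, 58.7% and 57.5%, and after thinning in 26.1%, 22.8%, 26.6% and 25.7%, where control 1 lay between the stress libraries. A nucleus with its RNA held 9.06 and 4.94 counts of it on average in the controls and 3.79 and 3.52 under stress. AT4G12520 was seen in 54.6%, 46.6%, 67.3% and 65.0%, and after thinning in 29.1%, 24.1%, 33.5% and 31.2%. In sums over libraries, more nuclei with a gene's RNA and more RNA per nucleus cannot be told apart.

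Nuclei of all libraries were clustered by RNA with the 8 members left out, and 7 classes named from marker genes were compared. A trichoblast is a root hair cell, and an atrichoblast is an epidermal cell without a hair. The cortex is the layer beneath the epidermis, and the pericycle lies deeper, inside the endodermis. The iron uptake epidermis-like class is named after genes of iron acquisition, and the DNA replication-like and dividing-like classes after genes of the cell cycle. Another 231 endodermis-like and 68 phloem-like nuclei were not compared, since fewer than 20 came from control 1, and 4962 nuclei stayed unnamed. The clusters depended on the random seed of the clustering, and calls below that changed with 3 other seeds are given with that change. The tests within the stress libraries were run with 1 seed only. In each of the 7 classes the markers of its own list had a higher summed CPM than in the median of the other classes, in every library. The cortex-like sums were 374, 382, 665 and 665 CPM against 64.3, 50.7, 188 and 197 CPM. The same markers gave the classes their names, so these sums are no separate support for the names. Some names rested on few markers. These were 3 of 9 in each pericycle-like cluster, 3 of 8 in DNA replication-like cluster 6, 3 of 11 in cortex-like cluster 10 and 4 of 13 in trichoblast-like cluster 11.

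Different clusters held several classes in the 2 conditions. Of the cortex-like nuclei, cluster 2, led by PP2-A5, AT5G41740 and CYP702A5, held 130, 35, 1052 and 931. Cluster 10, led by AOC2 and AOC1, genes of jasmonate synthesis, held 24, 870, 4 and 1, and cluster 14, led by EXPA11, AT4G16270 and ELP, held 186, 164, 162 and 114. The iron uptake epidermis-like nuclei fell into clusters 0 (90, 43, 2126 and 1875) and 5 (326, 1219, 5 and 6), and the pericycle-like nuclei into clusters 7 (101, 1215, 10 and 7) and 8 (57, 43, 628 and 513). The DNA replication-like nuclei fell into cluster 6 (858, 603, 9 and 5), led by heat-shock genes such as HSP17.6A, and cluster 15 (182, 167, 139 and 99), led by histone genes such as HTB2. The trichoblast-like nuclei were those of clusters 9 (163, 122, 354 and 323) and 11 (295, 238, 161 and 118). Atrichoblast-like (440, 455, 475 and 407) and dividing-like nuclei (124, 174, 235 and 188) were 1 cluster each. Each difference between conditions within the first 5 of these classes is also in part one between clusters.

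AZI1 and EARLI1 were highest in cortex-like nuclei under stress. In both controls this was also the highest of the compared classes, on few counts, while the order of the other classes differed. AZI1 had 4.50, 11.4, 126 and 122 CPM there, from 7, 55, 683 and 590 counts. The exact 95% Poisson intervals were 1.81 to 9.26, 8.56 to 14.8, 116 to 135 and 113 to 133 CPM. Cortex-like nuclei held 41.2%, 56.7%, 41.4% and 44.6% of all AZI1 counts, while they held 8.86%, 16.1%, 14.4% and 15.2% of all RNA counts. Next by mean came pericycle-like nuclei, with 0, 3.02, 30.7 and 32.5 CPM, whose interval in control 1 reached 7.77 CPM and so overlapped that of cortex-like nuclei, then iron uptake epidermis-like nuclei, with 0.698, 2.33, 30.1 and 29.2. Below the cortex-like class, neighbours in that order overlapped in at least 1 library, except that iron uptake epidermis-like nuclei lay above atrichoblast-like nuclei (0.663, 1.40, 24.0 and 25.4 CPM) in 4 of 4. The lowest class by mean was DNA replication-like, with 0.673, 0.338, 18.2 and 15.3 CPM, and the mean CPM of the cortex-like class was 7.65 times as high.

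EARLI1 had 2.57, 1.24, 127 and 114 CPM in cortex-like nuclei, from 4, 6, 692 and 549 counts. It followed AZI1 closely, and its mean CPM was 11 times that of the DNA replication-like class, which had 0.168, 0, 9.10 and 13.1 CPM. Under stress both genes were highest within the cortex-like class in cluster 2, where AZI1 had 11.9, 30.8, 148 and 141 CPM, from 5, 3, 666 and 580 counts. In cluster 14, which held similar numbers of nuclei from all libraries, AZI1 had no count in either control and 18.4 and 14 CPM under stress. In cluster 10, which held control nuclei, AZI1 had 15.7 and 14.3 CPM in the controls, from 2 and 52 counts. So 52 of the 97 AZI1 counts of control 2 were in that cluster.

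In the stress libraries AZI1 RNA was seen in 32.7% and 34.9% of cortex-like nuclei, and after thinning in 11.7% and 11.7%. In dividing-like nuclei, which are deeper with median RNA counts of 7193 and 7017, it was seen in 12.3% and 10.6%, and after thinning in 2.98% and 0.532%. Free RNA gives counts in any nucleus, and levels as low as those of the dividing-like nuclei are not read as expression.

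AT4G12510 and AT4G12520 were highest by mean in trichoblast-like nuclei, followed by atrichoblast-like and cortex-like nuclei. AT4G12510 had 2688, 1389, 942 and 788 CPM in trichoblast-like nuclei and 1057, 382, 878 and 868 in atrichoblast-like nuclei, with the first class above the second in 3 of 4 libraries. AT4G12520 had 2873, 1537, 1206 and 1036 CPM in trichoblast-like nuclei and 1398, 552, 1289 and 1074 in atrichoblast-like nuclei. For AT4G12520 the first class was above the second in the controls and below it under stress, so these 2 classes are not ordered. The lowest levels were in dividing-like and DNA replication-like nuclei, where AT4G12510 had 150, 89.3, 139 and 109 CPM in the latter. Levels differed by cluster within a class. AT4G12520 had 1819, 1318, 3049 and 3284 CPM in cluster 14 of the cortex-like class and 325, 256, 517 and 442 in cluster 2.

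AT4G12545 and AIR1 were highest in iron uptake epidermis-like nuclei in all 4 libraries. AT4G12545 had 1004, 714, 893 and 813 CPM there and 154, 83.0, 371 and 363 in trichoblast-like nuclei. AIR1 had 1319, 868, 1525 and 1457 CPM there, 105, 244, 465 and 465 in cortex-like nuclei and 106, 46.5, 158 and 173 in DNA replication-like nuclei. Mean CPM in the iron uptake epidermis-like class was 856 for AT4G12545 and 1292 for AIR1. The next class by mean was atrichoblast-like for AT4G12545, at 480, and pericycle-like for AIR1, at 374. For AT4G12545 the groups overlapped in the leading class, while in the other 6 classes both stress libraries lay above both controls. In cluster 0, AIR1 had 1625, 782, 1529 and 1460 CPM, so its groups overlapped there as well, with 90 and 43 control nuclei.

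**Figure D2:**
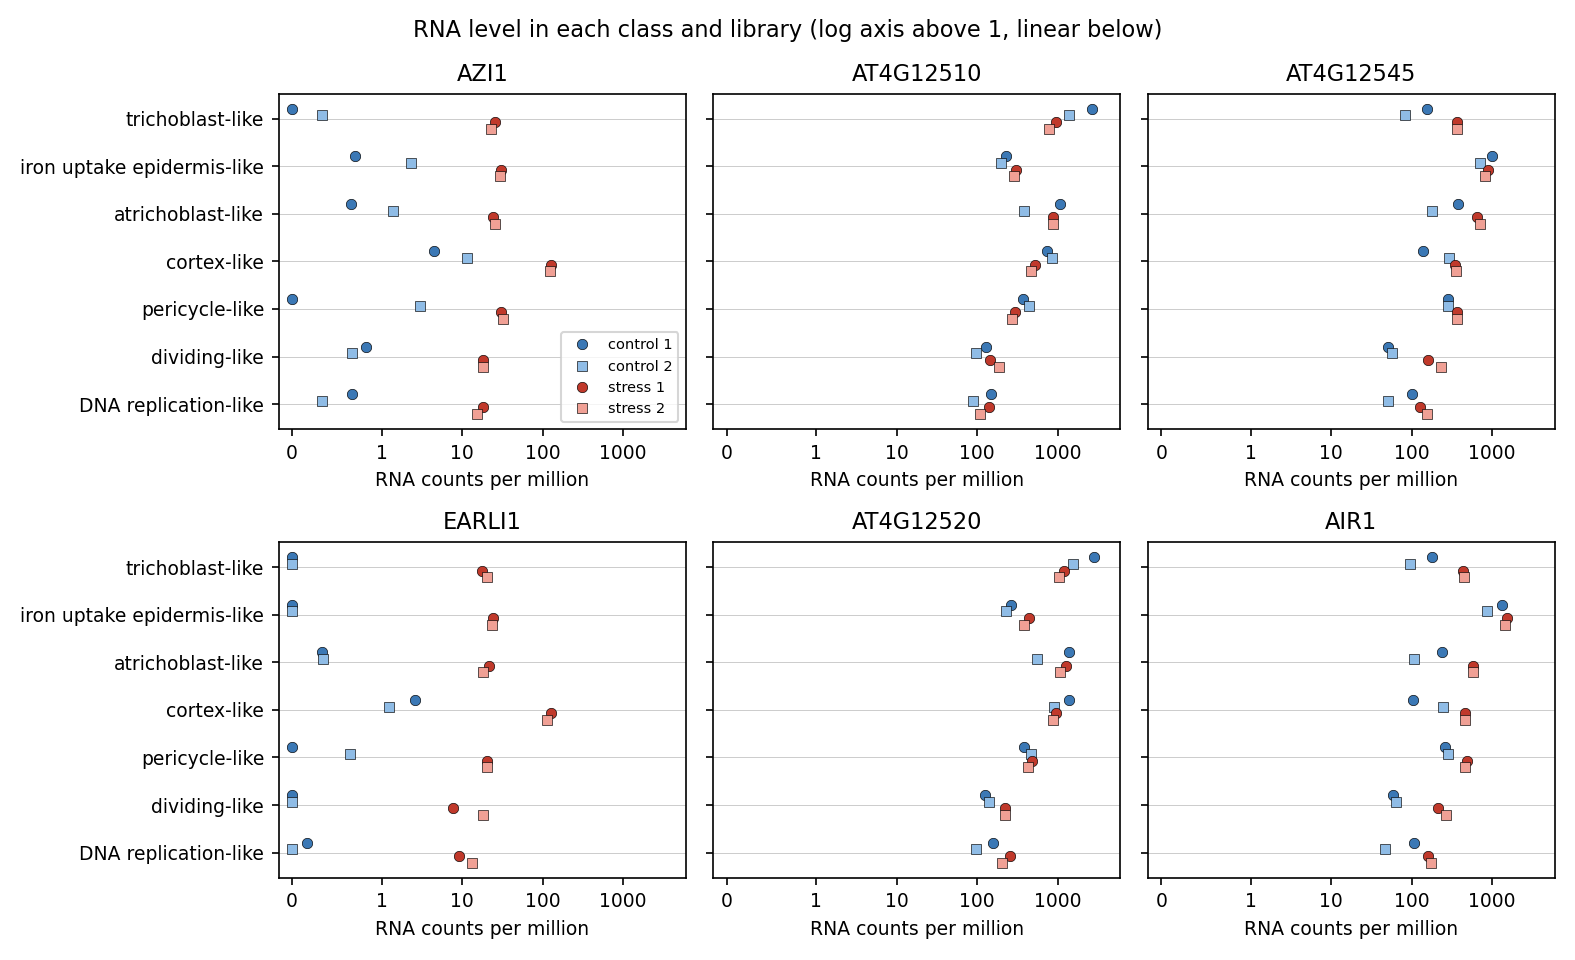
RNA level of the 6 detected members in each of the 7 classes, in CPM on an axis that is logarithmic above 1 and linear below, with 1 point per library (circles, replicate 1; squares, replicate 2; blue, control; red, stress). The columns pair AZI1 with EARLI1, AT4G12510 with AT4G12520 and AT4G12545 with AIR1, and AZI1 and EARLI1 lie highest in cortex-like nuclei under stress, AT4G12545 and AIR1 in iron uptake epidermis-like nuclei.

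Finer clustering, at a resolution of 1.0 in place of 0.6, set apart a narrower atrichoblast-like class of 501 nuclei (141, 141, 119 and 100 per library), led by genes such as XTH17, EXPA17 and KCS5. Here 4 members were abundant, and by the mean over libraries 3 of them were highest in this class. AT4G12510 had 2579, 710, 2640 and 2786 CPM, AT4G12520 had 3436, 1081, 3805 and 3226, and AT4G12545 had 881, 293, 1758 and 2016. In the controls, however, AT4G12510 was higher in trichoblast-like nuclei (2672 and 1356 CPM) and AT4G12545 in iron uptake epidermis-like nuclei (884 and 714 CPM). AIR1 had 514, 150, 1086 and 1059 CPM, against 1115, 866, 733 and 708 in iron uptake epidermis-like nuclei, so the latter class led in the controls and by the mean and the atrichoblast-like class led under stress. In iron uptake epidermis-like nuclei at this resolution, AT4G12545 had 884, 714, 495 and 462 CPM. Both genes thus lay lower in both stress libraries there, unlike at resolution 0.6. The class then held 1158 and 1043 stress nuclei in place of 2131 and 1881. By the mean, the highest class was thus the same at both resolutions for 3 of 6 members, AZI1, EARLI1 and AIR1. It was the same for 6 of 6 with 3 other random seeds, and for 6 of 6 when the genes called under stress were left out of the clustering. With random seed alternative 3 and without the called genes, however, no class took the atrichoblast-like name. Those clusterings could therefore not show that class as the highest.

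In each of the 7 classes, AZI1 and EARLI1 had more RNA in both stress libraries than in both controls. In the compared classes other than cortex-like, AZI1 had 15.3 to 32.5 CPM and EARLI1 7.68 to 24.5 CPM under stress. A difference at such levels cannot be told apart from one in free RNA. Of the nuclei not compared, endodermis-like nuclei had 48.0 and 24.6 CPM of AZI1 and 52.8 and 32.8 of EARLI1 under stress, from 9 to 22 counts. Unnamed nuclei had 35.4 and 29.8 CPM of AZI1 and 27.6 and 22.1 of EARLI1 under stress. They held 24.0% and 20.6% of the AZI1 counts of these libraries. The rule asked for both stress libraries above both controls and a log2 ratio of the mean CPM of at least 2, and 2 of the 8 members passed it in each class. Among all genes with enough counts the share that passed was 0.921% in DNA replication-like, 4.9% in atrichoblast-like, 3.84% in cortex-like, 3.42% in dividing-like, 2.86% in iron uptake epidermis-like, 2.44% in pericycle-like and 5.98% in trichoblast-like nuclei. Without the limit on the ratio, both stress libraries lay above both controls in 29.1%, 45.4%, 42.9%, 39.7%, 44.7%, 30.5% and 54.4% of genes and below both in 18.7%, 15.2%, 17.5%, 13.5%, 16.1%, 18.5% and 14.9%, in the same order of classes. This is the contrast on which the members were chosen, so nothing is read from these counts. The AZI1 ratio was lowest in cortex-like nuclei, at 15.6, where its mean control level was 7.93 CPM, and highest in trichoblast-like nuclei, at 146, where the controls together held 1 count. EARLI1 had a ratio of 63.3 in cortex-like nuclei. Against a floor of 3 counts over a control group without counts, it was at least 39.1-fold higher in trichoblast-like and at least 49.0-fold higher in iron uptake epidermis-like nuclei. Without control 2 the number of members past the rule was 1 in pericycle-like nuclei. It was 4 in dividing-like nuclei without stress 1, and 4 in trichoblast-like nuclei without control 1 or with 1 of the other random seeds.

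AT4G12545 and AIR1 shifted by less and not in the same classes alike. AIR1 had 57.9, 63.6, 216 and 266 CPM in dividing-like nuclei, a log2 ratio of 1.99, and 181, 95.9, 437 and 448 in trichoblast-like nuclei, a log2 ratio of 1.68. AT4G12545 had 50.4, 56.3, 159 and 229 CPM in dividing-like nuclei, a log2 ratio of 1.86. AT4G12510 had 737, 860, 524 and 468 CPM in cortex-like nuclei, with both stress libraries below both controls, and 129, 95.8, 145 and 189 in dividing-like nuclei, with both above. The cortex-like values followed the clusters, for in cluster 2 AT4G12510 had 308, 154, 376 and 332 CPM and in cluster 14 it had 863, 957, 1184 and 1228, both with the stress libraries above the controls.

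Levels of partners in a pair were alike across classes and libraries. Over 28 sums (7 classes in 4 libraries), Pearson's r of log2(CPM + 1) was 0.97 for AZI1 and EARLI1, 0.97 for AT4G12510 and AT4G12520 and 0.96 for AT4G12545 and AIR1. Across pairs it ran from 0.05 to 0.55. Sums of a library share its depth and sums of a class its cells, so these values are a description. For AZI1, EARLI1, AT4G12545 and AIR1 they also hold the difference between stress and control on which the members were chosen, as do the likenesses to other genes below. Counts of AT4G12510 and AT4G12520 may be split between copies, which can also make this pair alike. Among 8327 genes with a mean of at least 20 CPM, members left out, the genes most like AZI1 were PSBO1 (0.95), CYP702A5 (0.91), PSBR (0.91), the ferritin gene FER1 (0.90) and AT1G67280 (0.90), of which PSBO1 and PSBR encode proteins of photosystem II. Most like EARLI1 were PSBO1 (0.92), CYP702A5 (0.91), LHB1B2 (0.89), AT2G41190 (0.89) and LHCA3 (0.88), of which LHB1B2 and LHCA3 encode proteins that bind chlorophyll. Most like AT4G12520 were AT2G35880 (0.95), the arabinogalactan protein genes AGP2 (0.95) and AGP41 (0.93), AT4G32530 (0.94) and AT4G30170 (0.94). Most like AIR1 were AT2G32295 (0.95), the metallothionein gene MT1C (0.95), the glycosyltransferase gene UGT72E1 (0.94), the glutamine synthetase gene GSR2 (0.94) and AT4G26060 (0.93).

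Accessible chromatin was not used to choose the members and was tested. Peaks called by the authors in each library were merged into 27679 regions, of which 13 lay in or beside the array and 8 overlapped a member or the 2000 bp before its start. A library without a called peak in a region has no count there, which is not a count of 0. Of these 8 regions, 3 were called in all 4 libraries and could be tested in whole libraries. Across the genome 18340 regions were tested, and edgeR called 0.147% higher and 0.0654% lower under stress.

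None of the 3 was among them. The region before AT4G12490 (chr4:7411339-7412307, 933 to 1901 bp before its start) had 46.7, 48.0, 52.5 and 54.7 peak CPM, which are peak counts scaled to the library's total of peak counts. Its log2 difference was 0.24 ± 0.07 (SE, 2 against 2 libraries, edgeR adjusted p = 0.153), and its adjusted p was 0.00214 without control 2. The region before AT4G12510 (chr4:7419334-7420256, 1461 to 2383 bp before its start) had 28.9, 25.7, 26.7 and 25.9 peak CPM, with a log2 difference of 0.03 ± 0.08 (edgeR adjusted p = 0.886). The region before AIR1 (chr4:7436749-7437712, 1403 to 2366 bp before its start) had 33.8, 31.0, 37.8 and 37.0 peak CPM. Its stress libraries lay above both controls, with a log2 difference of 0.28 ± 0.07 (edgeR adjusted p = 0.122). That region was called without control 1 (adjusted p = 0.0155) and without control 2 (adjusted p = 0.0338).

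The remaining regions were called in some libraries only. A region before AZI1 (chr4:7402857-7403822, 906 to 1871 bp before its start) was called in both stress libraries, with 1405 and 1361 counts or 39.3 and 43.1 peak CPM, and in neither control. The region between AZI1 and EARLI1 (chr4:7405097-7405910), which lies more than 2000 bp before AZI1 and past the end of EARLI1 and was chosen after its values were seen, was also called only in the stress libraries, at 17.6 and 18.9 peak CPM. A further region, between AT4G12520 and AT4G12545 (chr4:7428224-7429084), was called only there as well, at 17.7 and 17.3 peak CPM. It too overlapped neither a member nor the 2000 bp before a start, and was chosen after its values were seen. Of all regions, 4.06% were called in both stress libraries and neither control, and 0.827% in both controls and neither stress library. Of the regions called in control 1 and control 2, 45.3% and 57.9% had values under 41.2 peak CPM, the stress mean of the region before AZI1. For the region between AZI1 and EARLI1, with a stress mean of 18.2 peak CPM, these shares were 5.75% and 10.48%. For the region between AT4G12520 and AT4G12545, with a stress mean of 17.5 peak CPM, they were 5.10% and 9.24%. Few regions called in the controls lay as low as these, so little is read from their missing calls there. The region over the last 80 to 943 bp before AT4G12545 (chr4:7433256-7434119) had 29.5 peak CPM in control 2 and 35.7 and 35.2 under stress, and the region at the start of AIR1 (chr4:7438816-7439655) had 16.4, 19.7 and 21.1. Neither was called in control 1, the library with the fewest peak counts. At the start of AT4G12500, a region (chr4:7414344-7415339) was called in control 1 and stress 2 only, at 11.3 and 12 peak CPM, and another before AT4G12545 (chr4:7431651-7432504) in control 2 only, at 18.3.

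**Figure D3:**
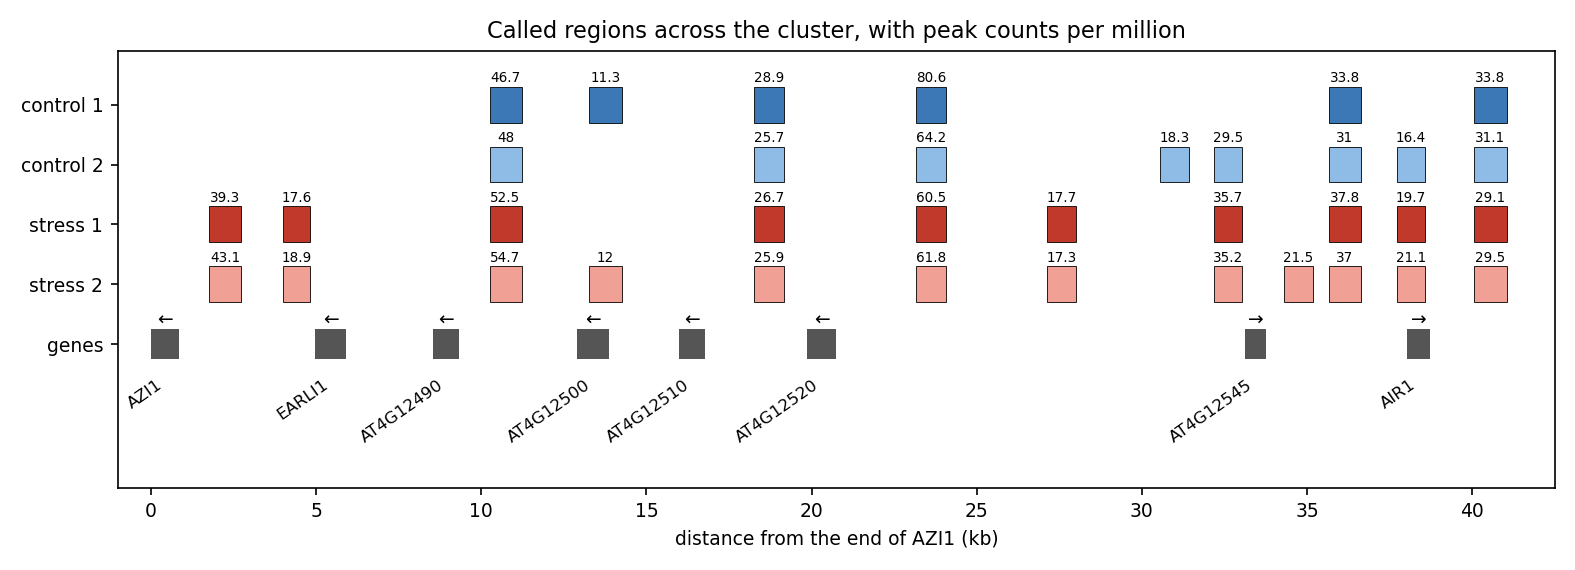
Called regions across the array in each library (coloured boxes, to scale) with their peak CPM above each box, against the distance from the end of AZI1 in kb, and the 8 genes (grey boxes; arrows give the strand). Boxes before AZI1, between AZI1 and EARLI1 and between AT4G12520 and AT4G12545 are present in both stress libraries and in neither control.

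The central 200 bases of the region before AZI1 (chr4:7403240-7403439, minus strand, RefSeq TAIR10.1) are shown because this region was called only under stress beside a member whose RNA was higher there. Capitals mark, on either strand, TTGAC (the W-box core), CCGAC (the core of the dehydration-responsive element) and ACGTG (the core of the abscisic acid response element).
AZI1 upstream peak centre: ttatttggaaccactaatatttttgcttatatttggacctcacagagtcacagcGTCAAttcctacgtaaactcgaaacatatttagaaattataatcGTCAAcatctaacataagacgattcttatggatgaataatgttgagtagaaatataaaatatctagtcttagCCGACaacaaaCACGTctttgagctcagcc
Over its 966 bases TTGAC occurred 6 times, and 3.77% of 27679 windows of the same length at called regions held at least as many. TGACG occurred 3 times, as often or more in 10.3% of windows. ACGTG occurred once, as did the dehydration-responsive core CCGAC and the auxin response motif TGTCGG, and 58.4%, 47.0% and 18.0% of windows held at least 1 of these in turn. The last 2 overlap here on opposite strands.

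Accessibility was then compared between each class and all other nuclei of the same library, with the library as a block in edgeR, and p-values were adjusted over all regions and classes. The classes came from RNA without the members, so this test was independent of their choice. For the 3 regions called in all libraries there were 21 such comparisons, of which 3 were higher in the class and 3 lower, against 7.67% and 7.73% of comparisons over all regions. Cortex-like nuclei were higher in all 3 regions, also with each of 3 other random seeds and with any library left out. The region before AIR1 was higher there by 0.74 ± 0.08 on the log2 scale (edgeR adjusted p = 3.17e-10), the region before AT4G12510 by 0.66 ± 0.09 (adjusted p = 3.96e-07) and the region before AT4G12490 by 0.39 ± 0.07 (adjusted p = 2.62e-05). Of all regions, 12.1% were called higher and 6.17% lower in cortex-like nuclei. In atrichoblast-like nuclei, where 4.36% of regions were higher and 5.32% lower, none of the 3 was called, with differences from -0.52 to -0.32. By RNA, AT4G12490 had almost no counts in any class and AIR1 was highest in iron uptake epidermis-like nuclei.

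The region before AT4G12510 was lower in dividing-like nuclei, with a difference of -1.89 ± 0.44 (edgeR adjusted p = 0.000935), in a class with 3.81% of regions called higher and 5.82% lower. In DNA replication-like nuclei it differed by -0.68 ± 0.30 (adjusted p = 0.137; 3.97% of regions higher and 5.66% lower). That difference was called with 3 other random seeds (adjusted p from 0.00366 to 0.0123), under which the class held more nuclei. In trichoblast-like nuclei, where AT4G12510 RNA was highest by mean, it differed by 0.17 ± 0.19 (adjusted p = 0.638; 1.85% of regions higher and 1.51% lower).

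In pericycle-like nuclei the region before AIR1 differed by -1.10 ± 0.18 (edgeR adjusted p = 4.98e-05) and that before AT4G12490 by -0.52 ± 0.13 (adjusted p = 0.00661), among 9.77% of regions called higher and 9.5% lower. The second of these calls was lost without stress 1 (adjusted p = 0.061) or stress 2 (adjusted p = 0.109). The region before AT4G12490 differed by -0.49 ± 0.22 in DNA replication-like nuclei (adjusted p = 0.145), a difference that was called with 3 other random seeds (adjusted p from 3.88e-06 to 9.87e-05). In iron uptake epidermis-like nuclei, where AIR1 RNA was highest, the region before AIR1 differed by -0.10 ± 0.08 (adjusted p = 0.513; 17.8% of regions higher and 20.1% lower).

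The region before AZI1 could be compared only within the 2 stress libraries, an alternative chosen after it was seen that the region was called only there. It was higher in cortex-like nuclei, with 58.9 and 60.9 peak CPM against 33.7 and 37.9 in all other nuclei. The log2 difference was 0.74 ± 0.09 (edgeR adjusted p = 3.33e-16, 2 libraries), in a class with 12% of regions called higher and 6.34% lower. It was also higher in iron uptake epidermis-like nuclei, with 47.7 and 51.5 against 34 and 37.9, by 0.45 ± 0.08 (adjusted p = 1.67e-07; 18.1% of regions higher and 20.7% lower). Pericycle-like nuclei were lower, with 9.94 and 18.1 against 40.7 and 44.5, by -1.62 ± 0.23 (adjusted p = 2.57e-05; 6.06% higher and 7.53% lower). Dividing-like nuclei differed by -1.62 ± 0.42 (adjusted p = 0.00203; 2.32% higher and 2.52% lower) and atrichoblast-like nuclei by -0.77 ± 0.23 (adjusted p = 0.00987; 2.62% higher and 3.02% lower). In trichoblast-like nuclei it differed by -0.28 ± 0.17 (adjusted p = 0.350; 1.78% higher and 1.49% lower) and in DNA replication-like nuclei, of which the stress libraries held 148 and 104, by -0.59 ± 0.57 (adjusted p = 0.608; 1.16% higher and 1.3% lower). The class with the highest AZI1 RNA was thus the class with the highest accessibility in this region. The pericycle-like class was among the lowest. Its AZI1 RNA under stress (30.7 and 32.5 CPM) was close to that of iron uptake epidermis-like nuclei (30.1 and 29.2 CPM). Such levels cannot be told apart from free RNA, so no order of RNA below the cortex-like class is compared with accessibility. The region between AZI1 and EARLI1 had 29.9 and 32.8 peak CPM in cortex-like nuclei against 14.1 and 14.8, a log2 difference of 1.11 ± 0.13 (adjusted p = 1.63e-16), and the region between AT4G12520 and AT4G12545 was higher there by 0.90 ± 0.13 (adjusted p = 2.6e-10). In iron uptake epidermis-like nuclei these regions differed by -1.06 ± 0.13 (adjusted p = 3.08e-15) and -0.50 ± 0.12 (adjusted p = 0.00092).

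The region at the start of AIR1 was higher in the iron uptake epidermis-like class in the same 2 libraries. It had 24.2 and 24.9 peak CPM there against 16.9 and 18.8 elsewhere, a log2 difference of 0.45 ± 0.11 (edgeR adjusted p = 0.000728, 2 libraries), where 18.1% of all regions were higher and 20.7% lower, and in cortex-like nuclei it differed by -0.14 ± 0.13 (adjusted p = 0.611). The region before AT4G12545 differed by 0.22 ± 0.08 in iron uptake epidermis-like nuclei (adjusted p = 0.0696) and by -1.11 ± 0.23 in pericycle-like nuclei (adjusted p = 0.00177).

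**Figure D4:**
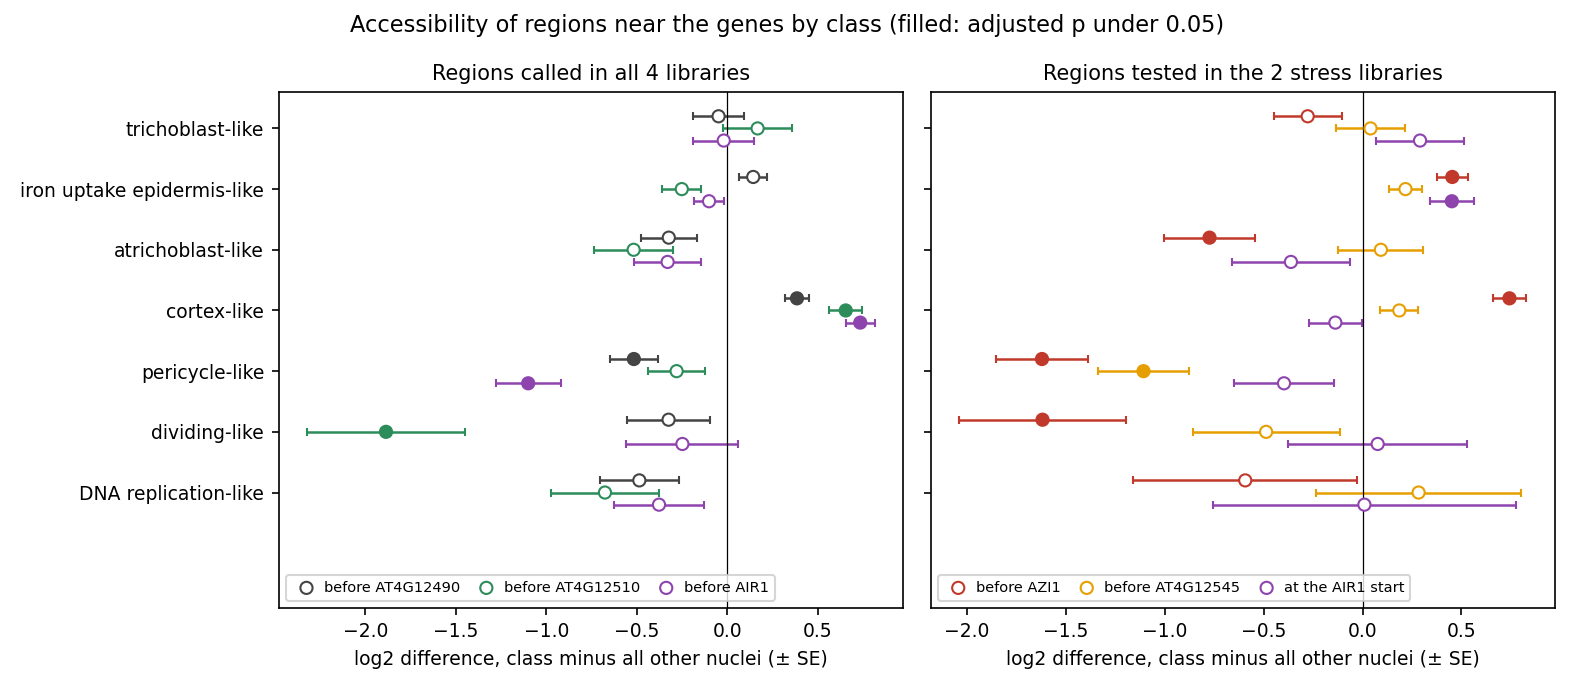
Difference in peak counts between each class and all other nuclei of the same library, as log2 with its SE, for the 3 regions called in all 4 libraries (left) and for 3 regions tested in the 2 stress libraries (right). Filled points have an edgeR adjusted p under 0.05, and the filled points of cortex-like nuclei lie above 0 in 3 of 3 regions on the left and in the region before AZI1 on the right.

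Genes of related function were counted from whole lists, which were drawn up with earlier results of these data known. Of all genes tested, 6.8% were higher and 3.07% lower, and no list was tested against them. Of 17 other hybrid proline-rich and related proteins with 8 cysteines, 14 were tested, 2 were higher under stress and 3 lower, with a median log2 difference of -0.69 against -0.0027 over all genes. AT4G00165 was higher by 2.40 ± 0.29 (edgeR adjusted p = 0.0285), and AT1G62510 by 1.56 ± 0.28 (adjusted p = 0.0457). AT1G12100 differed by -2.20 ± 0.38 (adjusted p = 0.0442) and AT5G46890 by -1.16 ± 0.21 (adjusted p = 0.047). AT4G12530, which lies inside the array and is not a member, had 23, 14, 71 and 53 counts and a log2 difference of 0.89 ± 0.51 (adjusted p = 0.278).

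Of 16 genes of azelaic acid signalling and systemic acquired resistance, 14 were tested, 2 were higher and 0 lower, with a median of 0.24. ALD1, which makes the precursor of pipecolic acid, was higher by 1.74 ± 0.32 (edgeR adjusted p = 0.048), and AT5G52810, which acts in the same route, by 1.41 ± 0.17 (adjusted p = 0.0279). Of 13 auxin-induced and lateral root genes, all tested, 0 were higher and 2 lower, with a median of -0.06. AIR3 differed by -1.0 ± 0.13 (adjusted p = 0.0317) and AIR12 by -0.94 ± 0.10 (adjusted p = 0.0246), both named like AIR1 for their induction by auxin in root cultures. AIR1 itself lay on the other side of 0.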

How the data were processed

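Nuclei of Arabidopsis root tips were measured in 4 multiome libraries. Per the submitters' processing notes and the study's methods, the authors ran Cell Ranger ARC 2.0.2 on each library against TAIR10 (Seurat 4.3.0 is also named) and deposited raw counts, namely RNA counts per gene and transposition counts per peak, with peaks called in each library alone. All columns were used. Of 32833 gene identifiers, 32548 matched the TAIR10.1 annotation of RefSeq. For 32536 the deposited start lay within the annotated gene or at most 50 bp outside it.

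Here nuclei were kept by RNA counts over 1000 and under 25000 and summed per library. Sums were tested with edgeR 4.0.16 (R 4.3.3; TMM, filterByExpr, quasi-likelihood test, Benjamini-Hochberg adjusted p-value under 0.05). An SE is the size of the log2 difference divided by the square root of F. Peaks wider than 20 and narrower than 10000 bp were merged at an overlap of 1 bp. The members, lists and tests were chosen with earlier results of these data known. The genes named are the members, the called genes of each list (at most 4) and the 5 genes most like AZI1, EARLI1, AT4G12520 and AIR1. The regions named by rule are those over a member or the 2000 bp before its start. The regions between AZI1 and EARLI1 and between AT4G12520 and AT4G12545 were added after their values were seen.

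Clustering used scanpy 1.11.5 and leidenalg 0.10.2 (Python 3.11.15; 2000 variable genes without the members, 30 principal components, graph of shared neighbours among the 20 nearest, resolution 0.6). The clusters changed with the random seed and with rounding in the arithmetic. Distances were therefore computed exactly from rounded components, and of 10 random seeds the partition of highest quality was used, a choice made after this was seen and without the members' values. A class name needed at least 3 markers and 20% of a list, each detected in at least 10% of nuclei at over 2 times the level of other nuclei. It also needed a lead of 1.5 over the next list. These thresholds, and a rule that clusters led by the vascular genes AAP2 or ABCG14 take no name outside the vascular tissue, were set after seeing the data. A class was compared if each library gave it 20 nuclei or more. Doublets were kept, since the automatic threshold of Scrublet marked 0 nuclei and so had not worked, and an alternative removed 83, 301, 473 and 338 nuclei at an assumed rate of 0.8% per 1000 nuclei. Alternatives included DESeq2 1.42.0, other scaling and filters, other limits on nuclei, thinning, a replicate block, other clustering, other random seeds and leaving out each library. The tests over all 4 libraries were also run on simulated data. The class test within the 2 stress libraries was not.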

Additional observations from a re-analysis of the deposited data

Results flagged for a closer look

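AT4G12510 and AT4G12520 differed between classes in the direction of their stress values, in that both stress libraries lay above both controls in some classes and below both in others. These differences between classes were not tested. AT4G12510 was higher under stress in dividing-like nuclei, with a log2 ratio of the mean CPM of 0.57 (129, 95.8, 145 and 189 CPM in control 1, control 2, stress 1 and stress 2), and in iron uptake epidermis-like nuclei (0.46). It was lower in cortex-like (-0.69), pericycle-like (-0.53) and trichoblast-like nuclei (-1.24, with 2688, 1389, 942 and 788 CPM). AT4G12520 was higher in DNA replication-like (0.86), dividing-like (0.74) and iron uptake epidermis-like nuclei (0.75), and lower in trichoblast-like nuclei (-0.98). Counts of this pair may be split between near-identical copies. In all of these classes but the dividing-like, different clusters held the control and the stress nuclei to some degree, and the part of this in the values was not tested beyond single clusters. In trichoblast-like cluster 11 AT4G12510 had 2522, 1488, 787 and 715 CPM, the same direction as in the class, and in cortex-like clusters 2 and 14 it had the opposite direction to the class. With 2 libraries per group, no library could be checked as lying far from its group.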

How the results depend on the processing

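Counts of calls changed with the libraries and nuclei that entered. Leaving out 1 library at a time gave 0 to 6468 genes higher under stress (1400 with all) and 0 to 6276 lower (633 with all). It gave 5 to 1457 regions higher (27 with all) and 2 to 1124 lower (12 with all). The lone library of a group is then assumed to vary like the other group. The extremes of 0 genes, without stress 1 or stress 2, left 1687 and 1569 genes higher and 706 and 644 lower at an unadjusted p under 0.05. Genes higher were 712 under the added limits on peak counts and 436 after thinning, and genes lower were 257 and 154. DESeq2 gave 1565 genes lower, every deposited barcode 1100 and equal numbers of nuclei 348. For regions, DESeq2 gave 330 higher and 214 lower, the added limits 3 and 2, and halved counts 48 and 22. Regions called in at least 1 library gave 0 and 0, with 2212 and 1426 at an unadjusted p under 0.05.

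Replicate numbers are shared by the groups, but the labels do not say that they pair libraries. The correlation of same-numbered deviations was 0.10 over genes and 0.05 over regions, from only 2 pairs. With the replicate block, 997 genes were higher and 376 lower, and 71 regions were higher and 37 lower.

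AT4G12520, at -0.47 with all libraries, ran from -0.89 to 0.093 when 1 library was left out and reversed to 0.31 under the added limits. Class differences in accessibility that were not called also reversed. For the region before AT4G12490 they turned to 0.16 in atrichoblast-like nuclei at resolution 1.0, and in trichoblast-like nuclei, where leaving out 1 library gave -0.13 to 0.087, to 0.0018 with random seed alternative 1. For the region before AT4G12510 the value turned to 0.55 in atrichoblast-like nuclei at resolution 1.0. For the region before AIR1 leaving out 1 library gave -0.64 to 0.11 in dividing-like and -0.098 to 0.053 in trichoblast-like nuclei. In the latter it turned to 0.0076 with no library block and to 0.025 and 0.046 with random seed alternatives 1 and 2. Regions called in class comparisons were 9846 higher and 9926 lower, and 6519 to 8299 and 6519 to 8160 when 1 library was left out. Members past the fold, 2 in each class, ran from 2 to 4 in dividing-like, 1 to 2 in pericycle-like and 2 to 4 in trichoblast-like nuclei when 1 library was left out, and were 4 in trichoblast-like nuclei with random seed alternative 3. The highest class was the same for 3 of 6 members at resolution 1.0. At that resolution AT4G12545 and AIR1 lay lower in both stress libraries than in both controls in iron uptake epidermis-like nuclei. In the clustering used, AIR1 lay higher there and AT4G12545 overlapped. Across 10 random seeds the adjusted Rand index to the clustering used, which is 1 for identical clusters, was as low as 0.869. Of 360 values for single members and regions under alternatives, 315 kept direction and side of the threshold. The cause of these changes was not tested. The limits on nuclei were those of the study for RNA counts. The choices to test classes in the stress libraries only and to vary the seed were made after seeing the data.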

Other observations

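In cortex-like nuclei of the stress libraries, EARLI1 and AZI1 RNA often occurred together. EARLI1 was seen in 38.4% and 37.0% of the 398 and 365 nuclei with AZI1 RNA, and in 15.9% and 19.1% of the 820 and 681 nuclei without. Nuclei with AZI1 RNA were also deeper, with median RNA counts of 4048 and 4047 against 3491.5 and 3655, and the part of depth in this difference was not tested. AT4G12520 was seen in 92.3%, 89.9%, 89.2% and 89.2% of trichoblast-like nuclei with AT4G12510 RNA and in 56.6%, 54.0%, 75.7% and 66.3% of those without, in the order control 1, control 2, stress 1 and stress 2. These nuclei were deeper as well, with medians of 5550, 7868, 6902.5 and 6854 counts against 3980, 5455, 5379 and 5568.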
